A study of Mus musculus with 284 samples.

Results

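The 78 genes described here encode mitochondrial ribosomal proteins. They were taken as every gene row whose symbol begins with Mrpl or Mrps followed by a number, pseudogenes left out, among the 54247 gene rows of the table. A member was to be used if 20% or more of each mouse's cells had a count for it (the 20% rule), and all 78 of 78 passed, as did 8474 genes overall. By their known place, 51 of the proteins sit in the large subunit and 26 in the small subunit. Mrps36 is a subunit of the oxoglutarate dehydrogenase complex and not of the ribosome, although its symbol fits the rule.

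The cells were 284 tumour propagating cells, the fraction of a skin tumour that can seed a new one, read 1 by 1 by Smart-seq2 from C57BL/6 mice that carried a keratin 14-driven Cre and a YFP reporter that Cre switches on. Every mouse had received DMBA once at 8 weeks of age to start mutations and then repeated TPA, a promoter of tumour growth, over more than 20 weeks. The sort took living YFP+ cells stained for CD34 and CD49f, so any cell whose lineage never expressed keratin 14 was gated out. Mice WT1 (69 cells) and WT2 (88 cells) are labelled wild type, and KO1 (73 cells) and KO3 (54 cells) are labelled Sirt6-/-. The mouse is the replicate, with 2 per genotype label. The labels do not say whether the deletion is limited to the cells with Cre.

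Mitochondrial ribosomes translate the few messages of the mitochondrial genome, all of which encode subunits of the respiratory chain or of ATP synthase. Their proteins are encoded in the nucleus, made on cytosolic ribosomes and imported, while their RNA comes from the mitochondrial genome. Part of the proteins have bacterial homologues and part are specific to mitochondria. Basal keratinocytes divide to renew the skin, and dividing cells are known to need new mitochondrial ribosomes.

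The labels and the cell identity were checked first. Sirt6 lay at 16.7 CPM (a gene's share of all counts of a mouse) in WT1 and 25.2 in WT2, against 27.0 in KO1 and 14.5 in KO3, so its reads do not separate the labels, and the second group is called the mice labelled Sirt6-/- throughout. The keratinocyte genes Krt14 and Krt5 had counts in 100% of the cells, Trp63 in 97.5%, and the sorted surface markers Itga6 (CD49f) in 91.9% and Cd34 in 72.9%. Markers of suprabasal, differentiating keratinocytes summed to 950 CPM in WT1 and 1986 in WT2, against 876 in KO1 and 1655 in KO3, so the sums overlap between the labels. Marker lists of fibroblasts (Dcn, Col1a2 and Lum at 0), endothelial cells (Cldn5, Emcn and Kdr at 0) and melanocytes (Tyrp1 and Dct at 0) summed to at most 1.72, 8.92 and 5.51 CPM, and that of immune cells (Cd3e at 0) ranged from 3.78 CPM in KO1 to 30.23 in WT2. Cells held 523999 to 1684464 counts. KO1 cells came from plates 1 and 2, KO3 cells from plate 2, WT1 cells from plate 3, and WT2 cells from plates 3 and 4. With no plate common to both labels, the plate and the genotype cannot be told apart.

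The upstream sequence of 5 members is shown, chosen after their values were seen. Mrpl17, Mrpl34 and Mrpl42 were among the members with the lowest p between the labels, Mrpl12 was among those that varied most with the other members, and Mrpl45 had the most NRF1 matches (3 in its window). Each stretch is the 150 bases of the coding strand before the first annotated exon, from the RefSeq table of GRCm38.p6, and capitals mark a match to the NRF1 motif (GCGC and TGCGC separated by 1 base) or to the ETS motif CCGGAAG on either strand. NRF1 and the ETS factor GABP are known regulators of nuclear genes for mitochondrial proteins. Mrpl17 is at chr7:105811100-105811249 (minus strand), Mrpl34 at chr8:71464776-71464925 (plus), Mrpl12 at chr11:120484463-120484612 (plus), Mrpl45 at chr11:97315566-97315715 (plus) and Mrpl42 at chr10:95501950-95502099 (minus).
Mrpl17: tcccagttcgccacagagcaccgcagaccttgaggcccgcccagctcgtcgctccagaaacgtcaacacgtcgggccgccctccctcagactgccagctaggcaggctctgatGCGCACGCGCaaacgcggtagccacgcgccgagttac
Mrpl34: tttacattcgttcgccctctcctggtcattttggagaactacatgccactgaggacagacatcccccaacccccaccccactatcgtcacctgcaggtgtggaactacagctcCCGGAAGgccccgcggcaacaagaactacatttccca
Mrpl12: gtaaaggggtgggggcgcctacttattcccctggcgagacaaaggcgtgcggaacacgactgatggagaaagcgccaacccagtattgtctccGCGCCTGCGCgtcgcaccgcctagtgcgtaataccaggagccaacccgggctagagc
Mrpl45: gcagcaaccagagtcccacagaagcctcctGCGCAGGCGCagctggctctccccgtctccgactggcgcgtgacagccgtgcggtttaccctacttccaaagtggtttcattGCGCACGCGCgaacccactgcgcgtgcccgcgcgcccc
Mrpl42: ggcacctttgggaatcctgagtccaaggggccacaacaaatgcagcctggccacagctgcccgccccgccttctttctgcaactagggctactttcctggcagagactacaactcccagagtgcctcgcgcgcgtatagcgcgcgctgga
The stretches of Mrpl17 and Mrpl12 hold 1 NRF1 match each, that of Mrpl45 holds 2, that of Mrpl34 holds an ETS match, and that of Mrpl42 holds none of these letters.

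Over the 69 members with a RefSeq promoter window (300 bases, from 250 before to 50 after a start), ETS matches were found in 26 members (37.7%), against 24.6% of the 5870 windowed genes past the 20% rule. The NRF1 motif was found in 13 members (18.8%, against 13.8%) and the YY1 motif AAGATGG in 13 (18.8%, against 9.6%). At least 1 of the 3 motifs was present in 43 members (62.3%) and in 41.1% of the genes past the rule. The SP motif GGGCGG was in 49.3% of the members and in 72.8% of those genes, and the TATA motif TATAAA in 7.2% and 8.2%. The respiratory chain list used throughout also holds the nuclear ATP synthase genes. Respiratory chain genes held the NRF1 motif in 25.4% and the ETS motif in 23.9% of 67 genes. Cytosolic ribosomal genes held them in 9.5% and 39.7% of 63 genes. These shares are descriptions of letters, with both strands searched and matches of different motifs allowed to overlap. A member had on average 1.09 windows and a gene past the rule 1.27.

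The members are spread over 17 chromosomes, with 11 of them on chromosome 11. A start of another gene on the opposite strand, within 1000 bp and pointing away, was annotated for 18 members (23.1%), against 852 of 7269 protein-coding genes past the 20% rule (11.7%). Examples are Mrps12, whose partner Sars2 encodes the mitochondrial seryl-tRNA synthetase, and Mrps18c, whose partner is Helq. Of the members, 28 overlap a gene on the other strand and 8 a gene on the same strand, and 45 overlap none. The labels name no strand setting, so reads of such pairs cannot be told apart.

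Levels between genes are given as CPM per kilobase of the median coding transcript, averaged over the 4 mice. On that scale the members ran from 5.52 to 312 with a median of 41.3, and the medians of the large subunit (42.3) and the small subunit (38.3) were close. The highest level per kilobase was that of Mrpl17 (312), followed by Mrpl20 (185), Mrpl42 (121), Mrpl4 (108) and Mrpl36 (107). The lowest were Mrpl1 (5.52), which forms a mobile stalk of the large subunit, Mrpl47 (6.14), Mrps25 (8.50), Mrps30 (8.71) and Mrps34 (10.3). The 56.5-fold range is one of RNA per length, and the proteins are known to be present once each in the ribosome, apart from the stalk protein Mrpl12. The median coding transcripts of Mrpl1 (3431 bases), Mrpl47 (3364), Mrps25 (6073) and Mrps30 (3319) are long beside that of Mrpl17 (743.5), while that of Mrps34 (918) is not, and the part of transcript length in their low levels was not tested. Mrpl23 is uncertain, because its processed pseudogene Mrpl23-ps1 holds 19425.6 summed counts against 3249.4 for the gene itself.

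Taken over all members, the mitochondrial ribosomal share of the transcriptome was lowest in WT2 and highest in KO3. The 78 genes summed to 3728 CPM in WT1 and 3154 in WT2, against 4156 in KO1 and 4828 in KO3. Both mice labelled Sirt6-/- thus exceeded WT1 and WT2. The median cell held 3787, 3026, 4142 and 4470 CPM in the same order, with wide overlap between cells of different mice. Where a mouse had cells on a second plate, the sum was 3554 CPM in the 7 WT2 cells on plate 3 against 3118 in the 81 on plate 4, and 4141 CPM in the 8 KO1 cells on plate 2 against 4158 in the 65 on plate 1.

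**Figure D1:**
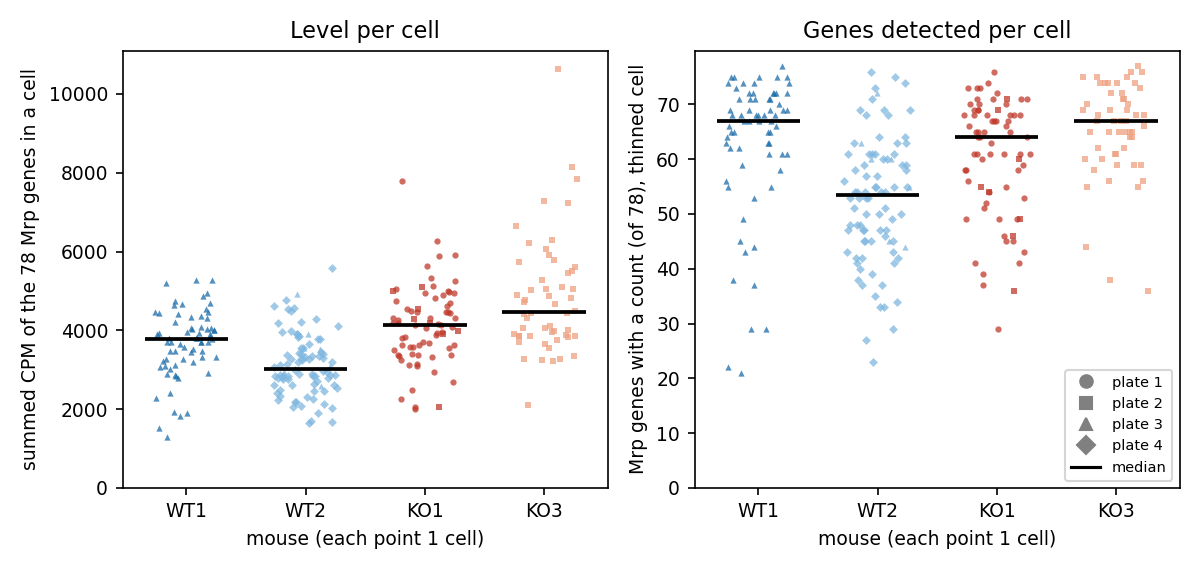
Summed CPM of the 78 Mrp genes (left) and number of them with a count after thinning to 500000 counts (right) in each of the 284 cells, by mouse on the horizontal axis; marker shapes give the plate and black lines the median. The median of WT2 is the lowest on both axes, at 3026 CPM and 53.5 genes, while cells of different mice overlap widely.

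Genes of proliferating cells had a partly similar order of mice. The summed level of 20 S phase genes was 3852 CPM in WT1 and 2171 in WT2, against 3145 in KO1 and 3917 in KO3, and that of 22 G2/M genes was 1587, 1076, 1087 and 2252 CPM. WT2 was thus lowest and KO3 highest in both lists, as for the mitochondrial ribosomal genes, while WT1 and KO1 stood in the opposite order. In the cells with under 1000 CPM of the S list and under 500 CPM of the G2/M list, the 78 genes summed to 3067 CPM in WT1 (17 cells), 2841 in WT2 (47 cells), 3762 in KO1 (23 cells) and 3169 in KO3 (4 cells). KO1 was the highest there, and KO3, with 4 cells, lay close to WT1, whereas in all cells KO3 stood highest. Member by member, 53 of 78 had a positive log2 difference in these cells, where 43.1% of all genes tested were positive and their median was -0.15. The part of proliferation in the difference was not tested beyond these values.

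No member passed the test between the genotype labels. With edgeR's quasi-likelihood test on summed counts, 0 of 78 members had an adjusted p under 0.05, as did 0 of 16567 genes (0%), with 4 members and 848 genes at an unadjusted p under 0.05. By DESeq2, 0 of 78 members were called against 148 of 16245 genes (0.911%). The fit rested on 2 residual degrees of freedom and a common coefficient of variation between mice of 0.723.

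In direction the members were nearly uniform. The log2 difference (labelled Sirt6-/- minus wild type) was positive in 73 of 78 members, with a median of 0.37 and a range from -0.23 to 0.96, while over all genes tested 49.3% were positive and the median was -0.01. Both mice labelled Sirt6-/- exceeded WT1 and WT2 in 47 members (60.3%), against 17.0% of all genes tested, and below both in 1 member, against 18.7%. The members share cells, plates and any shift common to the group, so they are not 78 separate observations. KO3 was the highest mouse in 58 members and WT2 the lowest in 51, and 40 members had both. Without KO3 the median fell to 0.23 and 63 members were positive, and without WT2 they were 0.27 and 70. Averaging log2 values over cells in place of summing counts gave a median of 0.59. Both mice labelled Sirt6-/- then exceeded WT1 and WT2 in 34 members, against 16.8% of all genes tested. In the 45 members that overlap no other gene the difference was positive in 45, with a median of 0.36.

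**Figure D2:**
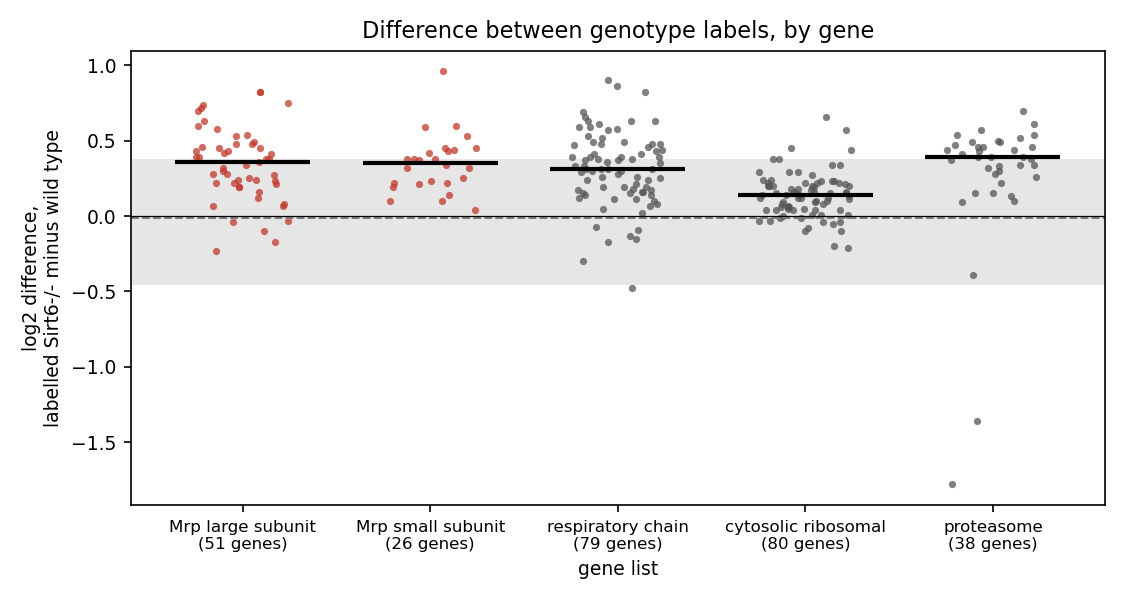
Log2 difference between the genotype labels for each gene (points) of the large and small mitochondrial ribosomal subunit, the respiratory chain, the cytosolic ribosome and the proteasome; black lines are list medians, the grey band the range from the lower to the upper quartile of all 16567 genes tested (-0.45 to 0.37) and the dashed line their median. The points of both subunits lie mostly above 0, with medians of 0.36 and 0.36.

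The same direction was seen gene by gene in other housekeeping machines. Respiratory chain genes were positive in 72 of 79 (median 0.31) and both mice labelled Sirt6-/- exceeded WT1 and WT2 in 62.0% of them. Proteasome genes were positive in 35 of 38 (median 0.39), with 60.5% above and 7.9% below both wild-type mice. The exceptions were Psmb8 (-1.78), Psmb9 (-1.36) and Psmb10 (-0.39), and those of Psmb8 and Psmb9 were large. The proteasome list was taken by symbol and so holds Psmc3ip, a recombination factor and no proteasome subunit. Without it 34 of 37 were positive and the median was again 0.39. For cytosolic ribosomal genes these values were 68 of 80, 0.14 and 32.5%. The 13 messages of the mitochondrial genome were positive in 12 (median 0.24). The summed levels of the cytosolic ribosomal genes and of these messages overlapped between the labels, while those of the respiratory chain and the proteasome did not. Cytosolic ribosomal genes summed to 53370 CPM in WT1 and 64290 in WT2, against 65455 in KO1 and 60893 in KO3. The messages summed to 13329, 16237, 19538 and 15887 CPM in the same order of mice. In the small subunit 26 of 26 members were positive and in the large subunit 46 of 51, and members with bacterial homologues (42 of 46, median 0.39) and those specific to mitochondria (30 of 31, median 0.27) both pointed up. None of these lists had a gene with an adjusted p under 0.05 by edgeR.

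The 12 members with the largest difference among those whose mice did not overlap were all higher in the mice labelled Sirt6-/-, and 9 of them belong to the large subunit. Mrpl17 (chromosome 7, 105803206 to 105811099, minus strand, GRCm38), the most abundant member per length, lay at 189.51 scaled CPM in WT1 and 156.60 in WT2, against 246.71 in KO1 and 333.81 in KO3. The means were 173 ± 23.3 and 290 ± 61.6 (SD, n = 2 mice each), and the log2 difference was 0.75 (SE 0.248, edgeR adjusted p = 0.912). The gap between the labels was wider than the spread within the wild-type mice and about that between KO1 and KO3. Mrpl36 (chromosome 13, 73328513 to 73332178), the smallest kind of large-subunit protein in bacteria, lay at 58.62, 55.97, 85.22 and 106.59 scaled CPM in the same order of mice. Its log2 difference was 0.74 (SE 0.222, edgeR adjusted p = 0.862), the lowest adjusted p of any member, and its annotation overlaps the complex I gene Ndufs6 on the other strand. Mrpl34 (chromosome 8, 71464959 to 71465747), which overlaps no other gene, lay at 20.01, 19.73, 30.61 and 39.37 scaled CPM. The wild-type mice were nearly equal there, and the log2 difference was 0.82 (SE 0.272, edgeR adjusted p = 0.912). Mrpl42 (chromosome 10, 95480805 to 95501940), a protein without a bacterial counterpart, lay at 61.90, 66.89, 92.25 and 100.06 scaled CPM, 2 close pairs, with a log2 difference of 0.58 (SE 0.198, edgeR adjusted p = 0.930).

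The largest difference was that of Mrps18c (chromosome 5, 100798627 to 100804471), a scarce member at 8.10, 5.68, 12.12 and 14.71 scaled CPM, with a log2 difference of 0.96 (SE 0.419). It shares its strand with an overlapping transcript, Gm43511. Mrps18c is 1 of 3 mammalian paralogs of a bacterial small-subunit protein, each of which holds a place of its own in the ribosome. Mrps18b, also in the small subunit, lay at 13.48, 10.15, 15.44 and 20.49 scaled CPM (log2 difference 0.60, SE 0.362). Mrps18a, which sits in the large subunit, lay at 29.80, 23.41, 32.85 and 41.34 scaled CPM (0.48, SE 0.282). The 3 paralogs thus had 1 order of mice, with WT2 lowest and KO3 highest. In the division by homology given above, Mrps18c was counted with the bacterial homologues. Mrps18a and Mrps18b were counted as specific to mitochondria, although they are paralogs of the same protein. The remaining members of the 12 were Mrpl47, Mrpl14, Mrpl20, Mrpl41, Mrpl27 and Mrps28, with log2 differences from 0.59 to 0.82. Of the 12, 6 overlap no other gene. Some of these differences moved with the cells or mice used. In the cells low in S and G2/M genes, those of Mrps28, Mrpl34, Mrpl41, Mrpl42 and Mrps18c fell to 0.05, 0.36, 0.39, 0.41 and 0.55. Those of Mrps18b, Mrpl36 and Mrpl27 rose there to 1.07, 1.07 and 0.87. KO3 had only 4 such cells. Without KO3 those of Mrps28, Mrpl20, Mrps18b and Mrpl41 were 0.31, 0.33, 0.38 and 0.39, and that of Mrpl47 was 0.48 without WT2 and 1.27 without WT1.

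**Figure D3:**
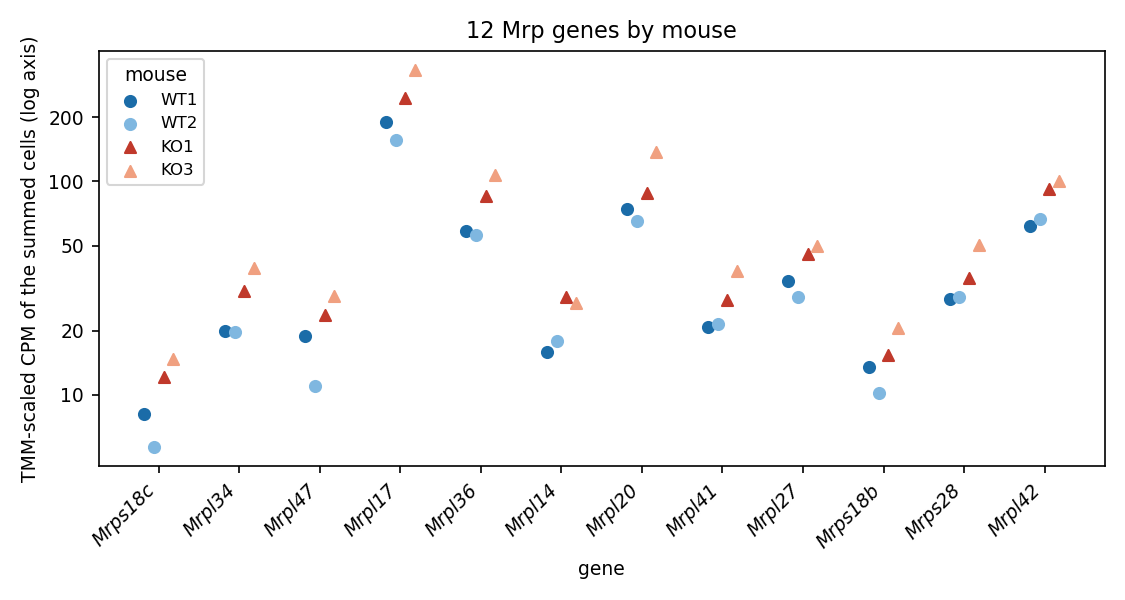
TMM-scaled CPM (log axis) of the 12 members with the largest difference among those whose mice do not overlap, in WT1 and WT2 (circles) and KO1 and KO3 (triangles). Each pair of triangles lies above the pair of circles, and KO3 is highest in all but Mrpl14.

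The members with special roles did not all follow. The stalk recruits translation factors to the ribosome, and its base protein Mrpl10 was the single member with both mice labelled Sirt6-/- below both wild-type mice, at 59.94 in WT1 and 62.13 in WT2, against 58.50 in KO1 and 45.83 scaled CPM in KO3 (log2 difference -0.23, SE 0.233). KO1 and WT2 were close there: with no TMM scaling, WT2 (59.39 CPM) lay below KO1 (59.92), and with log2 values averaged over cells WT2 was also below KO1, so that no member then had this order. Mrpl11 at the same base lay at 26.45, 26.63, 35.30 and 34.21 scaled CPM (0.39, SE 0.234), and the stalk protein Mrpl12 at 45.40, 31.74, 46.46 and 59.78 (0.46, SE 0.298). None of the 3 passed the edgeR test. Mrps12, which lines the decoding centre, lay at 50.97, 59.09, 64.35 and 86.54 scaled CPM (0.45, SE 0.253).

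Mrpl45, which tethers the ribosome to the inner membrane, lay at 87.21, 70.78, 98.77 and 104.36 scaled CPM (0.36, SE 0.215). Mrpl58, a peptidyl-tRNA hydrolase built into the large subunit, lay at 36.55, 31.66, 32.00 and 39.90 (0.08, SE 0.257), with overlapping labels. Mrpl44, related to ribonuclease III, was at 34.19, 25.74, 27.72 and 31.06 (-0.03, SE 0.278), with the 2 mice labelled Sirt6-/- between the wild-type mice. Mrps30, a large-subunit protein in spite of its symbol, lay at 29.37, 21.99, 33.22 and 31.07 scaled CPM (0.32, SE 0.278). The dehydrogenase subunit Mrps36 lay at 16.13, 14.54, 20.70 and 21.19 (0.45, SE 0.284), so the member outside the ribosome had a difference within the range of the others. The 5 members that varied most between the mice (SD of log2 level 0.47 to 0.57) were Mrpl47, Mrps18c, Mrpl46, Mrps25 and Mrpl17. Mrpl46 was low in 1 mouse, at 51.39 in WT1 and 24.81 in WT2, against 52.62 in KO1 and 58.53 scaled CPM in KO3, and Mrps25 was high in 1, at 49.14, 38.99, 37.57 and 80.73.

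Genes that work around the mitochondrial ribosome were less uniform. All 5 ribosomal proteins without an Mrp symbol (Chchd1, Gadd45gip1, Ptcd3, Aurkaip1 and Dap3) had KO1 and KO3 above WT1 and WT2, with a median log2 difference of 0.39. That order of mice was found in 17.0% of all genes tested, in 20.0% of the assembly genes, 20.0% of the translation factors, 17.6% of the tRNA synthetases and 7.1% of the genes of mitochondrial DNA expression. Chchd1 lay at 20.59, 19.01, 31.56 and 49.20 scaled CPM (log2 difference 1.03) and Gadd45gip1 at 5.77, 4.49, 7.47 and 10.07 (0.77). Of 20 ribosome assembly genes 13 were positive (median 0.09), and the largest differences pointed in opposite directions for 2 methyltransferases of the large ribosomal RNA, Mrm2 (3.52, 2.78, 9.54 and 5.13 scaled CPM, 1.22) and Mrm1 (20.91, 19.02, 13.36 and 10.75, -0.73). Of 15 translation factors 12 were positive (median 0.22), with Taco1 (1.00, SE 0.843) and the elongation factor Tsfm (0.83, SE 0.299) furthest from 0. Taco1 was scarce, at 1.21, 2.88, 2.74 and 5.45 scaled CPM, with overlapping labels. Of 17 mitochondrial tRNA synthetases 11 were positive (median 0.02), with Mars2 (0.62) and Yars2 (0.39) furthest. Of 14 tested genes of mitochondrial DNA expression and its nuclear regulators 5 were positive (median -0.24), among them neither Myc (328.33, 695.60, 428.53 and 270.62 scaled CPM, -0.55) nor the coactivator Ppargc1b (7.45, 14.50, 11.65 and 3.34, -0.55). Myc was highest in WT2 and lowest in KO3, the opposite ends to the summed mitochondrial ribosomal level. No gene of these 5 lists had an adjusted p under 0.05 by edgeR.

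Most members were found in most cells. After each cell was thinned to 500000 counts, the median cell had counts for 67 of the 78 genes in WT1 and 53.5 in WT2, against 64 in KO1 and 67 in KO3, and single cells ranged from 21 to 77. WT2 had the lowest share of cells with a count in 68 of 78 members and KO3 the highest in 52. The cells of WT2 also had fewer genes of any kind, with medians of 6541 genes in WT1 and 5510.5 in WT2, against 5998 in KO1 and 6158.5 in KO3. As a share of the genes found, the members made up 1.02%, 0.97%, 1.03% and 1.05% in the same order of mice. Without thinning the medians were 68, 54, 64 and 67.5 genes. A count of 0 in a cell can be a limit of capture and does not show that the gene is silent.

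Cell-to-cell spread was low for their level. Against a curve of squared coefficient of variation on mean level over all genes past the 20% rule, the median member lay at percentile 14.3 in WT1 and 16.3 in WT2, against 14.6 in KO1 and 19.6 in KO3. Respiratory chain genes lay at 6.3, 8.4, 19.6 and 10.4 and cytosolic ribosomal genes at 8.2, 7.7, 38.3 and 13.8. All 3 machines were thus below the middle in every mouse.

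Transcripts of single members co-varied weakly across the cells of a mouse. The measure was the mean Pearson correlation of gene pairs over log2(CPM + 1), after the linear trends on total counts and on genes detected were removed. It was 0.0401 in WT1 and 0.0191 in WT2, against 0.0421 in KO1 and 0.0621 in KO3 (mean 0.0408 ± 0.0176, SD, n = 4 mice), over 3003 pairs. All pairs of the 8474 genes gave a mean of 0.0023, and pairs among the 5611 other genes in the members' range of level gave 0.0025. The members exceeded both in 4 of 4 mice, at the smallest p that an exact two-sided sign-flip test over 4 mice can give (0.125). Respiratory chain pairs averaged 0.148, proteasome pairs 0.0785 and cytosolic ribosomal pairs 0.512, each above the members in 4 of 4 mice. Pairs within the large subunit averaged 0.0421 in WT1 and 0.0233 in WT2, against 0.0439 in KO1 and 0.0518 in KO3, and pairs within the small subunit 0.0230, 0.0172, 0.0381 and 0.0915 in the same order. The small subunit was thus above the large one in KO3 and below it in the other mice, and pairs across the subunits averaged 0.0407, 0.0151, 0.0412 and 0.0694. These correlations share their libraries, depth and trends removed, and such small values in sparse counts are descriptions.

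The members differed in how strongly they joined in, from 0.080 to -0.007. The mean correlation with the other members was positive for 77 of 78 and positive in all 4 mice for 46. The highest were Mrpl33 (0.080), Mrpl12 (0.079), Mrpl17 (0.076), Mrpl51 (0.073) and Mrps7 (0.073). The lowest were Mrps31 (0.009), Mrpl38 (0.008), Mrps30 (0.006), Mrpl55 (0.006) and Mrpl24 (-0.007). Mrpl33 had correlations of 0.064, 0.073, 0.074 and 0.111 in WT1, WT2, KO1 and KO3, whereas Mrpl24 had 0.014, -0.018, -0.016 and -0.010. Across the 78 members this correlation went with the level (r = 0.36), a relation over genes that share their cells.

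**Figure D4:**
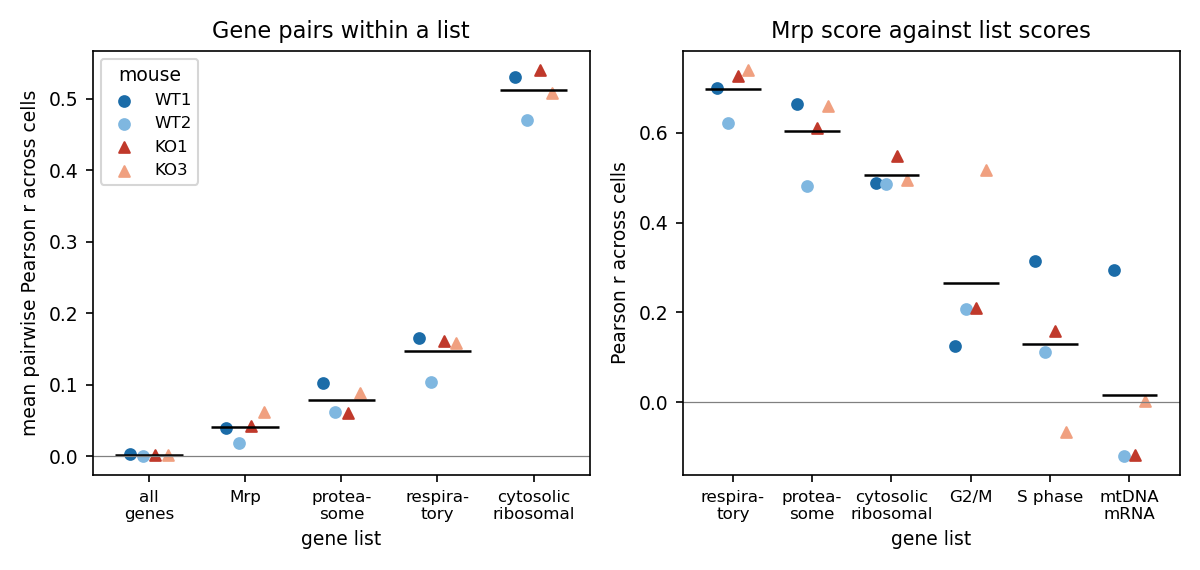
Mean pairwise correlation within gene lists (left) and correlation of the Mrp score with the scores of other lists (right), across the cells of each mouse (circles wild type, triangles labelled Sirt6-/-); black lines are means over the 4 mice. Mrp pairs average 0.0408 against 0.512 for cytosolic ribosomal pairs, while the Mrp score follows the respiratory chain score at 0.697.

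The members' relation to the respiratory chain, compared with that to the cytosolic ribosome, depended on the measure. By single gene pairs, a member correlated on average at 0.0646 with respiratory chain genes and at 0.0832 with cytosolic ribosomal genes, a difference of -0.0186 that was negative in 4 of 4 mice (exact two-sided sign-flip p = 0.125, the smallest possible). With no trend removed, or with the trend on total counts alone, that difference was positive in 4 of 4 mice (0.0521 and 0.0505), so its sign depends on whether the number of detected genes is regressed out. A second measure, chosen after seeing the data, averaged the genes of a list into a score per cell (the mean z-score). The correlation of the mitochondrial ribosomal score with the respiratory chain score was 0.700 in WT1 and 0.622 in WT2, against 0.727 in KO1 and 0.740 in KO3 (mean 0.697). With the proteasome score it was 0.664, 0.481, 0.612 and 0.659 (mean 0.604), and with the cytosolic ribosomal score 0.488, 0.487, 0.549 and 0.495 (mean 0.505). The respiratory chain score thus exceeded the cytosolic ribosomal score in 4 of 4 mice. It did so too in every mouse used under each of the alternatives run, though those that leave out a mouse reuse the main values. A score correlation also depends on how strongly genes correlate within a list, here 0.148 for respiratory chain pairs and 0.512 for cytosolic ribosomal pairs. The order of the scores therefore does not show that single members follow the respiratory chain more closely. The place of the respiratory chain score above the proteasome score did not hold throughout. With no trend removed the means were 0.706 for the respiratory chain and 0.774 for the proteasome. With the trend on total counts alone they were 0.699 and 0.765.

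**Figure D5:**
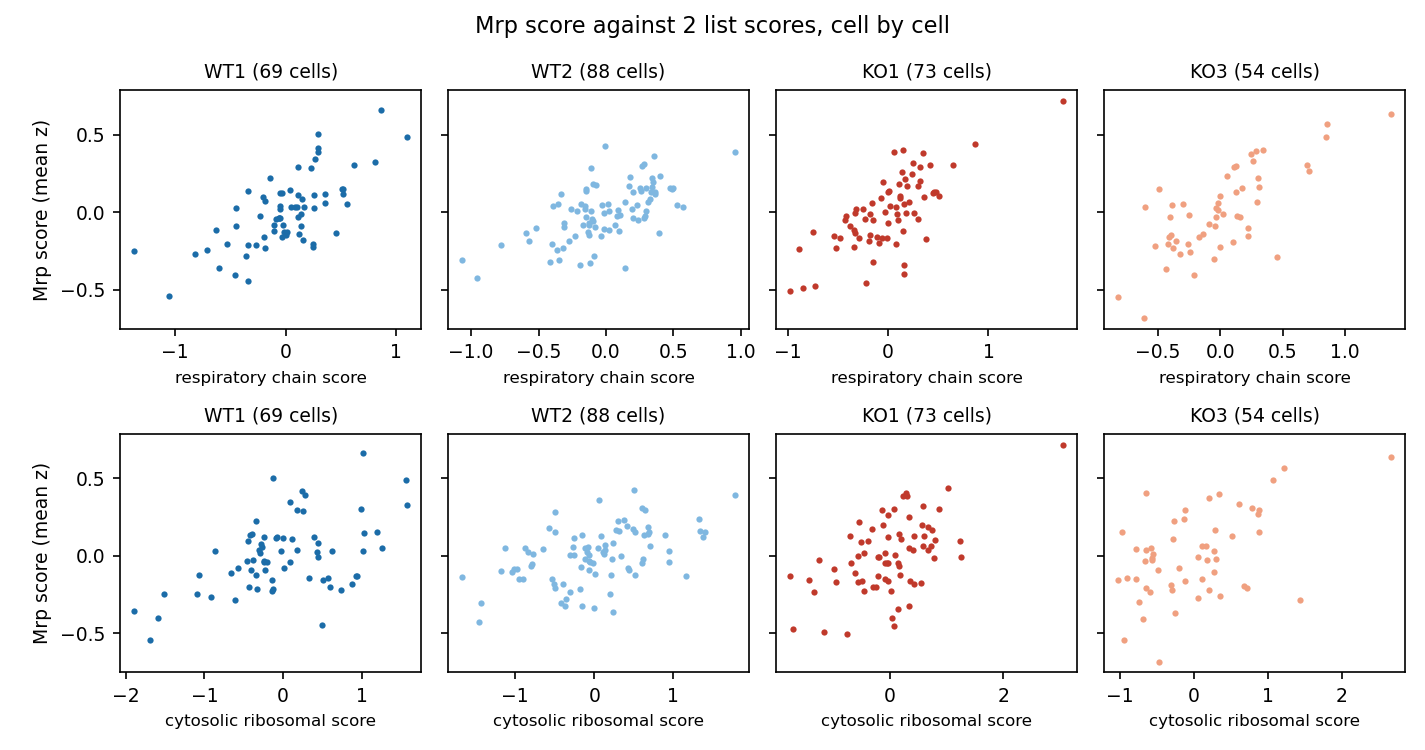
Score of the 78 Mrp genes (vertical axis, mean z-score within mouse) against the respiratory chain score (top row) and the cytosolic ribosomal score (bottom row), 1 point per cell and 1 column per mouse. The points lie closer to a line in the top row, where the correlation is 0.622 to 0.740, than in the bottom row, where it is 0.487 to 0.549.

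The score of the messages encoded by the mitochondrial genome, which these ribosomes translate, showed no steady relation to the members, with correlations of 0.294 in WT1 and -0.119 in WT2, against -0.117 in KO1 and 0.002 in KO3. The G2/M score correlated with the members at 0.126, 0.207, 0.209 and 0.517 and the S phase score at 0.315, 0.111, 0.159 and -0.066, so KO3 stood out as high in the first and low in the second. With both cell cycle scores regressed out, the mean pairwise correlation of the members was 0.0351 and the respiratory chain score still correlated at 0.665.

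The non-member genes most like the mitochondrial ribosomal score, by mean correlation over the 4 mice among the 1557 of 8396 genes positive in every mouse, included the nucleoside diphosphate kinase Nme2 (0.561), the translation factor Eif5a (0.537), Elob (0.534), Nme1 (0.520), the ribosomal protein gene Rpl14 (0.511), the complex IV subunit Cox6b1 (0.505), the mitochondrial import chaperone Timm13 (0.500), Rps13 (0.496) and the prolyl isomerase Ppia (0.492). Nme1 and Nme2 are similar in sequence, so their estimated counts may share reads. Nme2 correlated at 0.595 in WT1 and 0.458 in WT2, against 0.656 in KO1 and 0.534 in KO3. Among the 100 highest genes, 30 were cytosolic ribosomal, of 80 past the rule, 13 belonged to the respiratory chain, of 77, and 2 to the proteasome, of 36.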

How the data were processed

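Expected counts for each gene in each cell were deposited by the authors. The submitters' processing notes name STAR, RSEM and mm10 (GRCm38). Tool versions and strand setting: not given in the sources used here. Among values above 0, 21.5% lie off a whole number, as RSEM splits reads that fit several genes. Without molecular identifiers a count is a read. The SDs and SEs given above cover the spread between mice, not counting error alone. Symbols came from GENCODE M21 (54156 of 54247 IDs matched). All 284 cells were kept, and no doublet caller was run on these single-sorted wells.

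Counts were summed per mouse, rounded, TMM-scaled, filtered with filterByExpr and tested with the quasi-likelihood test of edgeR 4.0.16 (R 4.3.3), with Benjamini-Hochberg adjustment over all genes and a threshold of 0.05. DESeq2 1.42.0 and limma 3.58.1 (voom) were alternatives, beside other scalings, filters, thinning to 500000 counts, single plates and each mouse left out. P-values measure the spread between 2 mice per label.

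Co-variation used NumPy 2.4.6, within each mouse, with no p-value from cells. The members and gene lists were chosen with earlier results of these data known. Members named were the 12 largest differences among those whose mice do not overlap, the 5 highest and lowest in level per kilobase and in co-variation, the 5 most variable over mice, and 12 of special role. Of other genes, the 10 most like the members' score and the 2 largest differences of each list were named. Of those 10, 1 is not reported here. Promoter windows came from RefSeq (GRCm38.p6), with 69 of 78 members matched.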

Additional observations from a re-analysis of the deposited data

How the results depend on the processing

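No member was called under any alternative that kept every mouse. Using all Mrp genes repeats the main result, and the alternatives that keep part of the members reuse its p-values, so these could not call a member. A fit without a mouse leaves 1 mouse under a label, so only its differences are given. The median log2 difference stayed positive in each of the 16 alternatives. That median was 0.59 with cell means of log2 values, and between 0.23 (without KO3) and 0.49 (without WT1) when 1 mouse was left out. The count of positive members was 63 to 76 with 1 mouse left out and 45 of 45 in members overlapping no other gene (chosen after seeing the data). Members whose mice do not overlap, 48 in either direction (35.7% of all genes tested), numbered 25 of those 45. In the cells low in S and G2/M genes (chosen after seeing the data) they numbered 29, against 35.3% of all genes tested there. With cell means of log2 values they numbered 34, against 32.4% of all genes tested. Without a mouse this count has no like value. The 156 values of the 12 named differences were positive under the alternatives run, though the lowest were 0.05 for Mrps28 (cells low in S and G2/M genes) and 0.31 for Mrps28 and 0.33 for Mrpl20 (both without KO3). The 12 were picked from these data as the largest differences among members whose mice do not overlap. Their sign is thus nearly fixed when a mouse is left out, and the count is no separate support. Of all genes tested, 1 was called with at least 10 CPM in 2 mice (edgeR), 148 by DESeq2 and 0 under each other alternative that kept every mouse. The mean pairwise correlation of the members was 0.1007 with no covariates, 0.0966 with log10 total counts only and 0.0605 by Spearman. That of all gene pairs rose too, to 0.0316, 0.03 and 0.0137, from 0.0023 in the main setting. The respiratory minus cytosolic pair difference reversed to 0.0521 with no covariates and 0.0505 with log10 total counts only. The cytosolic ribosomal score correlation (a result added after seeing the data) was 0.461 and 0.564 with pseudocounts of 0.1 and 10, 0.223 with no covariates, 0.215 with log10 total counts only and 0.467 by Spearman; the causes were not tested beyond what each alternative leaves out. No paired analysis was possible because no pairing of the mice is given and no plate holds both labels. With 2 mice per label and weak counts in single cells, neither small differences between labels nor correlations of single pairs can be resolved.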
